A study of Homo sapiens with 9 samples.

Results

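A set of 64 genes of MDA-MB-231 cells was counted higher with one hairpin against AHR and lower with the other. Each library's counts were divided by its column total and scaled to 1000000 reads (CPM). A gene entered the set when the highest of the 3 group means was at least 2 CPM, one hairpin's mean was at least 1.3 times the control mean, and the other's was at most the control mean divided by 1.3. Of 60649 genes listed, 12107 reached the floor of 2 CPM, and the 64 make up 0.529% of these. In 14 of them shAHR#2 gave the higher level and shAHR#3 the lower, and in 50 the order was reversed. Of the genes at the floor, 15.3% were at least 1.3-fold higher and 25.7% at least 1.3-fold lower with shAHR#2. With shAHR#3 these shares were 11.97% and 14.6%. Moves of this size went up with both hairpins in 1087 genes and down with both in 1487. Because the choice used both comparisons with the control, the values of these genes are given below as a description. Where members are counted among the genes that a test over all genes called, that count describes them too and is no independent support.

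The cells are an established human line of triple-negative breast cancer, labelled as mammary epithelial cells. The 9 libraries fall into 3 groups of 3. These are the control vector pLKO-GFP and 2 constructs, shAHR#2 and shAHR#3, that each express a short hairpin RNA against AHR. Beyond the puromycin used for selection, no drug is named for any group. Following the study's methods, the vectors were delivered by lentivirus, and the cells that survived puromycin were pooled, so no group is a single clone. The methods number the constructs #1 and #2 where the labels number them #2 and #3, and the labels' numbers are kept here. No source says that the 3 libraries of a group came from separate cultures or transductions, so the errors below measure the spread between these libraries, which may be technical. Both hairpins were compared with the same 3 control libraries. Total counts ranged from 15991396 to 20374460 reads per library.

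The targeted gene was lower with both constructs. AHR was counted at 116, 121 and 123 CPM in the pLKO-GFP libraries, at 41.4, 39.3 and 40.9 CPM with shAHR#2 and at 46.3, 52.1 and 44.8 CPM with shAHR#3. Its log2 fold change was -1.501 (standard error 0.05) with shAHR#2 and -1.31 (standard error 0.05) with shAHR#3 in edgeR's quasi-likelihood fit. The line's mesenchymal markers were high in every library, VIM between 2660 and 3846 CPM. The hormone receptor PGR had no read in any library, and ESR1 had at most 4. Other genes expected to be low in this line were not absent. ERBB2 was at 60.4 to 76.1 CPM, GATA3 at 9.00 to 11.4 and EPCAM at 5.13 to 6.98 across the libraries. The T cell gene CD3E had no read either, and the leukocyte gene PTPRC had 1 to 33 reads per library.

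AHR is a transcription factor that small ligands activate. With its partner ARNT it binds a response element whose core is GCGTG, and it induces enzymes that clear foreign compounds. NEDD9, the marker of the set, is a scaffold of the CAS family, which also holds BCAR1, EFS and CASS4. CAS proteins are phosphorylated by focal adhesion kinase and SRC kinases when integrins bind the matrix, and they recruit CRK adaptors that drive cell spreading and migration. NEDD9 is known in breast cancer for its part in invasion.

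Promoters were searched for the response element because AHR is the target of both hairpins. RefSeq windows of 300 bases (250 before and 50 after the start, GRCh38.p14) matched 43 of the 64 genes and 9640 of the genes at the floor. The core GCGTG, on either strand, lay in 18 of the 43 windows (41.9%) and in 51.6% of the 9640. The longer form TNGCGTG, which contains the core, lay in 2 of 43 (4.65%) and in 7.43% of the 9640. Its windows belonged to PIK3C2B, a lipid kinase, and AC002480.3, a long noncoding RNA. The window searched for NEDD9 (chr6:11382299-11382598, minus strand) did not hold the core. Any other start of a gene was not searched. The windows below show these 2 and the core in 5 further members, 29 bases each in the direction of transcription with the matched letters in capitals (CACGC is the core read on the other strand).
PIK3C2B, chr1:204494919-204494947, minus strand: ttctcttccccCACGCAAtggcaagtggg
AC002480.3, chr7:22563263-22563291, plus strand: atcagcaaataCACGCCAtggctgtgctc
PDGFRB, chr5:150155971-150155999, minus strand: tgaaaacagacgCACGCgtccaccctccc
FOS, chr14:75278641-75278669, plus strand: acgagattaggaCACGCgccaaggcgggg
EPAS1, chr2:46297278-46297306, plus strand: gggcctgccggcGCGTGcccgcccacaca
IFIT3, chr10:89327933-89327961, plus strand: acatcagctgatGCGTGccctactctccc
STEAP1, chr7:90154464-90154492, plus strand: ggctcaggcgccGCGTGgggcccgcacct
The first 6 belong to genes that were higher with shAHR#3, and STEAP1 to a gene that was higher with shAHR#2. The palindrome CACGTG lay in 3 of 43 windows (6.98%, against 10.2% of the 9640), the AP-1 site TGACTCA in 0 (against 2.95%), CCAAT in 18 (41.9%, against 37.1%) and TATAAA in 6 (13.95%, against 5.13%). The median GC content of the windows was 64.7% for the members and 65.7% for the 9640. A match is only a run of letters, and whether AHR binds any of these windows was not measured.

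Among the 14 genes higher with shAHR#2, the log2 ratio of mean CPM to the control ran from 0.39 to 1.89 (median 0.54) with shAHR#2 and from -2.71 to -0.38 (median -0.50) with shAHR#3. Among the 50 in the other direction it was at most -0.39 (median -0.75) with shAHR#2 and ran from 0.38 to 3.47 (median 0.66) with shAHR#3. The larger of both moves came with shAHR#2 in 37 genes and with shAHR#3 in 27. Moves of at least 1.5-fold both ways were seen in 24 genes. Only RP11-717F1.2, ANKRD30B, AKR1C2 and LDLRAD4 moved at least 2-fold both ways, and these had few reads.

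**Figure D1:**
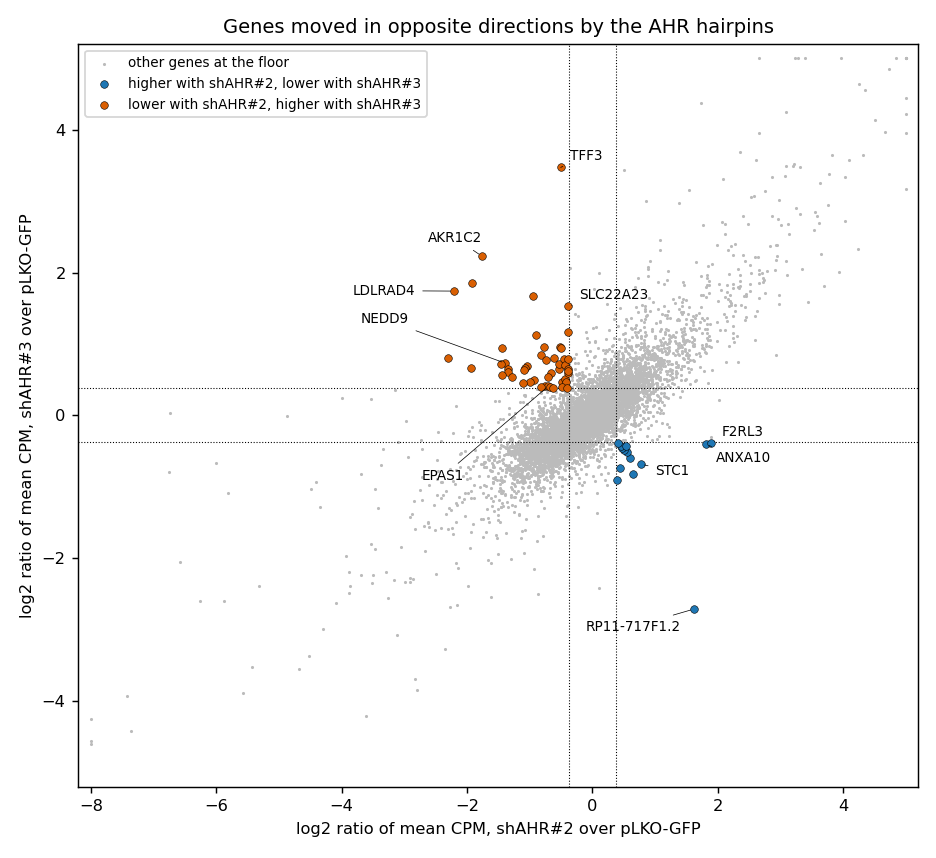
Log2 ratio of mean CPM against pLKO-GFP for shAHR#2 (x axis) and shAHR#3 (y axis), 1 point per gene for 12096 genes at the floor with reads in every group; points beyond the axes are drawn at the edge. Dotted lines mark 1.3-fold; the 14 blue and 49 orange members drawn lie outside them in opposite corners, while both axes share the same controls.

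In 50 of the 64 genes (10 of the 14 and 40 of the 50) the 3 libraries of each hairpin lay wholly on their own side of the 3 controls. Over all genes at the floor that was so for 3.06%, a share that the choice of the 64 makes incomparable. Under edgeR's quasi-likelihood test, 47 of the 64 were called in opposite directions (adjusted p under 0.05 in both comparisons), beside 2.03% of the 14274 genes tested, and again nothing is read from the difference. In 11 genes the shAHR#2 libraries overlapped the controls, and in 5 the shAHR#3 libraries did. The 14 without a clean gap were RP11-717F1.2, NMRK1, ANXA10, F2RL3, LINC01303, ID4, NOS3, TFF3, SEMA6C, LPL, SPARC, THSD1, SLC22A23 and PCAT7. The 17 members not called in opposite directions were these without RP11-717F1.2, and also RAB38, DDN-AS1, EFNA1 and NR4A2.

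**Figure D2:**
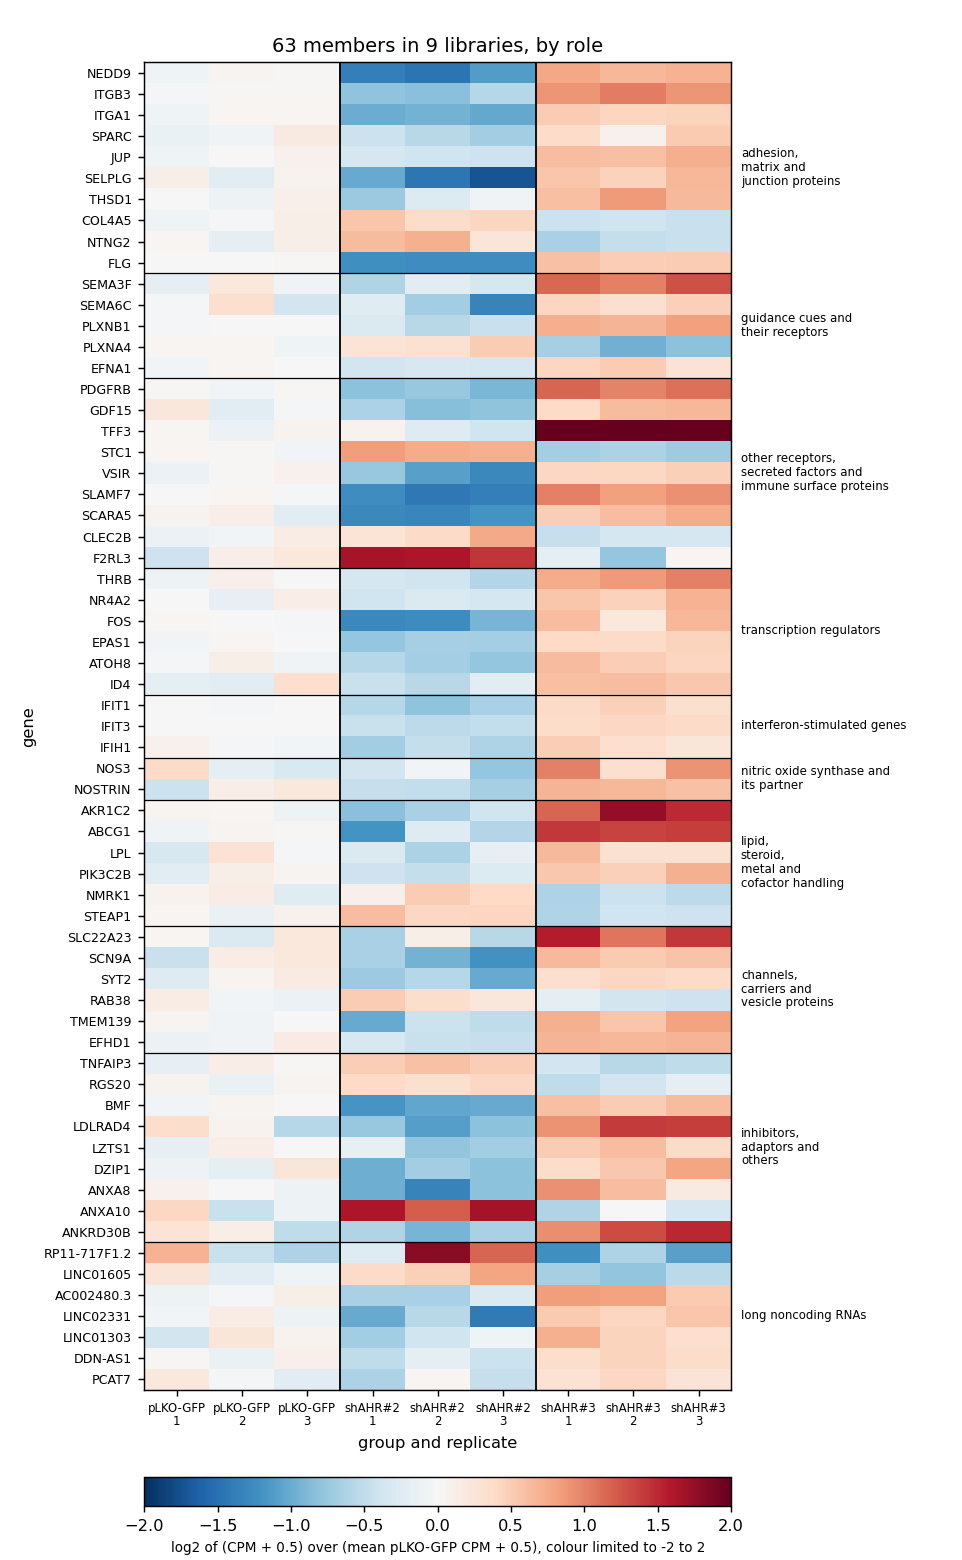
63 members (rows, grouped by role) in the 9 libraries (columns); colour is log2 of CPM plus 0.5 over the mean pLKO-GFP CPM plus 0.5, blue for lower and red for higher. 49 of the rows run blue to red from shAHR#2 to shAHR#3, and 14 run the other way.

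Most members were expressed at a low level. The control mean was under 2 CPM in 18 genes (28.1%, against 3.15% of all genes at the floor), so these passed the floor only through a hairpin group. It was 2 to under 10 CPM in 29 genes and at least 10 CPM in 17. The median coefficient of variation between libraries of a group was 10.99% for pLKO-GFP, 13.7% for shAHR#2 and 8.36% for shAHR#3, against 4.42%, 4.57% and 4.88% over the genes at the floor. Per kilobase of exon, the highest control levels were those of IFIT3 (21.9 CPM per kb), EPAS1 (20.3) and IFIT1 (14.8). LDLRAD4 was the lowest at 0.0196. A total of 57 members are protein-coding and 7 are long noncoding RNAs. The floor genes were 93.5% protein-coding.

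Adhesion, matrix and junction proteins made up 10 members, of which 8 were higher with shAHR#3, beside 50 of all 64. NEDD9 (chromosome 6, 11183298 to 11382348 of GRCh38) had 213, 266 and 258 reads in the control libraries, 91, 71 and 93 with shAHR#2 and 441, 410 and 436 with shAHR#3. This is 13.1 ± 0.734 CPM under pLKO-GFP, 4.98 ± 0.680 with shAHR#2 and 21.7 ± 0.898 under shAHR#3 (± is the SD of 3 libraries here and below). No library of one group reached into the range of another. NEDD9 thus stood at 38.1% of the control mean with shAHR#2 and at 1.66 times it with shAHR#3, and the hairpins differed by 4.35-fold. In these bulk libraries, fewer cells that express a gene and less RNA per cell cannot be told apart.

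Both integrin chains of the set moved as NEDD9 did. ITGB3 is the beta chain of the vitronectin receptor and of the platelet fibrinogen receptor. It was at 11.9, 12.5 and 12.5 CPM in the controls, 6.80, 6.69 and 8.09 with shAHR#2 and 23.2, 25.4 and 23.2 with shAHR#3. Its 3 groups were separate, and its mean was 58.5% of the control with shAHR#2 and 1.95-fold with shAHR#3. A gene model without reads shares 2266 of its exonic bases on the same strand. ITGA1, the alpha chain of a collagen receptor, was at 47.0, 51.4 and 51.0 CPM in the controls, 24.7, 25.6 and 24.2 with shAHR#2 and 71.0, 67.2 and 68.2 with shAHR#3. These groups were separate too, at 49.9% of the control and 1.38-fold. PELO lies within the ITGA1 locus on the same strand and shares 499 exonic bases with it. Its mean of 50.4 CPM under pLKO-GFP went to 39.7 with shAHR#2 and 45.4 with shAHR#3, lower with both.

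The partner chains did not share this pattern. ITGB1, which pairs with ITGA1, rose by 0.64 (standard error 0.02) on the log2 scale with shAHR#2 and by 0.32 (standard error 0.02) with shAHR#3, with adjusted p = 2.51e-23 and 4.80e-14 in edgeR's quasi-likelihood test. ITGAV, which pairs with ITGB3, rose by 0.19 and 0.11 (adjusted p = 5.50e-06 and 0.0034). Of 15 integrin chains tested, 11 were called higher and 2 lower with shAHR#2 (the members ITGA1 and ITGB3), and 12 higher and 1 lower with shAHR#3 (ITGB8). Over all genes tested, 32.6% were called higher and 33.2% lower with shAHR#2, and 26.9% higher and 27.5% lower with shAHR#3. The median log2 fold change of the 15 chains was 0.34 with shAHR#2 and 0.52 with shAHR#3, against values of nearly 0 over all genes.

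NEDD9's own family and its partners held no other member. BCAR1 was at 32.1 ± 0.196 CPM under pLKO-GFP, 27.8 ± 2.12 with shAHR#2 and 30.0 ± 3.76 with shAHR#3. Its changes of -0.15 and -0.07 on the log2 scale (standard errors 0.07) passed the threshold in neither comparison (adjusted p = 0.0812 and 0.416, edgeR). Without shAHR#2 replicate 2 the first became -0.21 and passed, and without shAHR#3 replicate 2 the other turned to 0.03. EFS had at most 3 reads and CASS4 at most 11 in any library, too few to be tested. Of 28 CAS adaptors and partners tested, 15 were called higher and 9 lower with shAHR#2, and 12 higher and 5 lower with shAHR#3, with medians of 0.11 and 0.06. The shares over all genes tested were 32.6% and 33.2% with shAHR#2, and 26.9% and 27.5% with shAHR#3. BCAR3, which binds CAS proteins directly, rose with both (log2 fold changes 0.87 and 0.61, standard errors 0.03). PXN, the focal adhesion scaffold paxillin, fell with both, by 0.92 and 0.51 (standard errors 0.03). Of the 28, 2 were called in opposite directions, NEDD9 and TNS3. TNS3 moved as NEDD9 did, by -0.35 and 0.31 (standard errors 0.03), but missed the fold threshold with shAHR#3. Its means were 168 CPM under pLKO-GFP, 125 with shAHR#2 and 204 with shAHR#3.

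**Figure D3:**
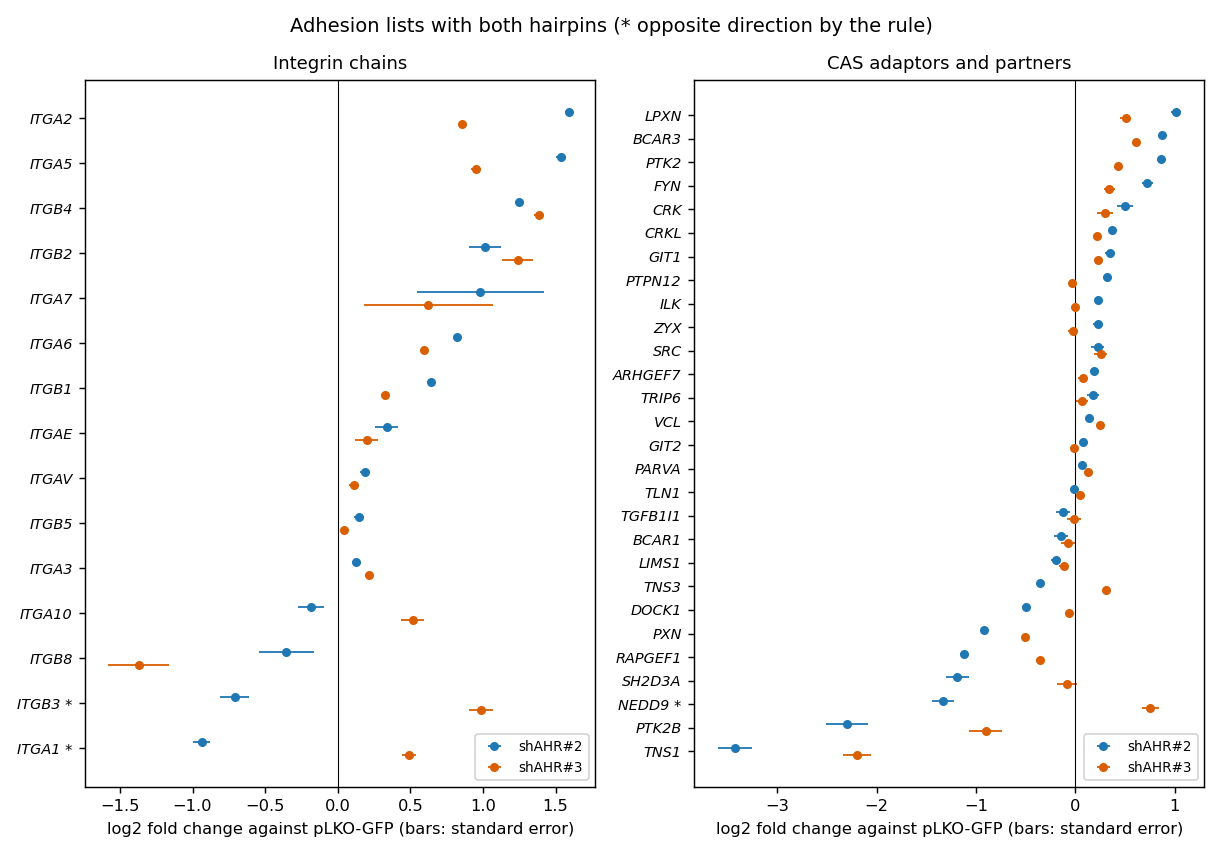
Log2 fold change against pLKO-GFP (x axis, bars are standard errors) for the 15 integrin chains and the 28 CAS adaptors and partners tested, shAHR#2 in blue and shAHR#3 in orange; asterisks mark members. ITGA1, ITGB3 and NEDD9 lie on opposite sides of 0 by the rule, whereas ITGB1 and BCAR3 lie above 0 with both.

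The junction, skin and membrane proteins of this role were also higher with shAHR#3. JUP, the junction protein plakoglobin, was at 41.1 ± 2.46 CPM under pLKO-GFP, 31.3 ± 0.732 with shAHR#2 and 64.6 ± 3.01 with shAHR#3. FLG, filaggrin of the cornified skin envelope, was at 25.2 ± 0.261, 10.4 ± 0.115 and 36.6 ± 1.21 CPM. FLG-AS1, which overlaps FLG on the opposite strand, moved differently, from 12.6 CPM to 18.6 and 15.4. SELPLG, the selectin ligand PSGL-1, was at 26.1% of the control with shAHR#2 and 1.58-fold with shAHR#3, and THSD1, a membrane protein with a thrombospondin repeat, at 76.1% and 1.73-fold. The shAHR#2 libraries of THSD1 overlapped the controls, and VPS36, which shares exonic bases with it on the same strand, is counted far higher (44.9 against 3.64 CPM over all libraries).

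The matrix genes of the set went opposite ways. COL4A5, a chain of type IV collagen in basement membranes, was at 9.08, 9.33 and 10.5 CPM in the controls, 14.4, 12.6 and 13.1 with shAHR#2 and 7.00, 7.16 and 6.97 with shAHR#3. SPARC, a matricellular protein that binds collagen, was at 1.81 ± 0.273, 1.06 ± 0.138 and 2.40 ± 0.431 CPM, with overlap between shAHR#3 and the control. NTNG2, a netrin-G that sits in the membrane of neurons, moved like COL4A5, from 4.32 ± 0.522 CPM to 6.53 ± 1.17 and 2.86 ± 0.252. Of 43 matrix and matricellular genes tested, 24 were called higher and 14 lower with shAHR#2, and 25 higher and 12 lower with shAHR#3 (medians 0.37 and 0.36). The shares over all genes tested were 32.6% and 33.2% with shAHR#2, and 26.9% and 27.5% with shAHR#3. The type IV chains COL4A1 and COL4A2 rose with both hairpins, by 0.68 and 0.37 with shAHR#2 and by 0.98 and 0.61 with shAHR#3.

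**Figure D4:**
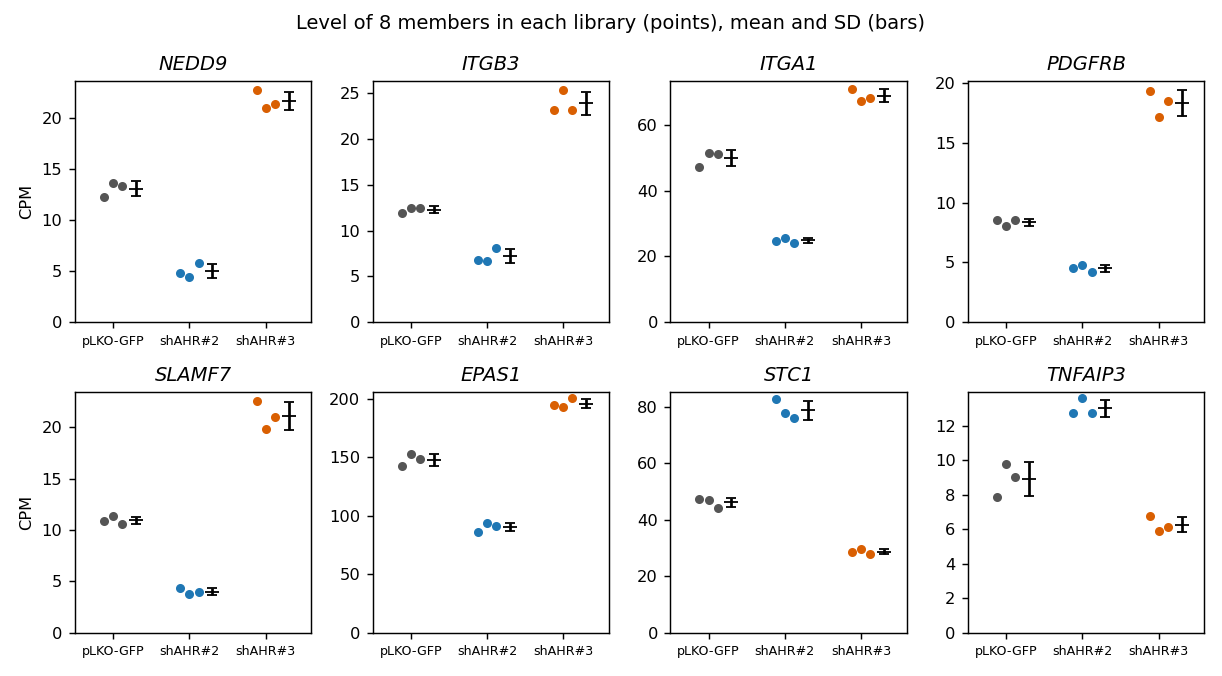
CPM of 8 members in each of the 9 libraries (points, 3 per group) with the mean and SD of each group (black). In all 8 the hairpin groups lie on opposite sides of pLKO-GFP, and only STC1 and TNFAIP3 are higher with shAHR#2.

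Guidance cues and their receptors gave 5 members: SEMA3F and SEMA6C, which are semaphorins, PLXNB1 and PLXNA4, which are plexins that bind semaphorins, and the ephrin EFNA1. SEMA3F, a secreted cue that repels migrating cells, was at 14.02, 18.5 and 15.2 CPM in the controls, 10.4, 13.6 and 12.3 with shAHR#2 and 35.7, 32.5 and 39.2 with shAHR#3. The gap was narrow below the control and wide above it. PLXNA4 was the one member of the group higher with shAHR#2, at 7.55 ± 0.688 CPM, against 5.74 ± 0.325 in the control and 3.07 ± 0.369 with shAHR#3. PLXNB1, the receptor of SEMA4D, was at 6.64 ± 0.128 CPM under pLKO-GFP, 4.82 ± 0.483 with shAHR#2 and 11.5 ± 0.549 with shAHR#3. EFNA1 was at 3.23, 2.42 and 4.47 CPM and SEMA6C at 2.02, 1.06 and 2.84. Of 25 semaphorin and plexin genes at the floor, a family looked at after the members were seen, 4 are members. SEMA3F's receptor NRP2 rose with both, by 0.56 and 0.66 (standard errors 0.08 and 0.07).

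Receptors, secreted factors and immune surface proteins added 9 members. PDGFRB, the receptor tyrosine kinase for PDGF-B typical of mesenchymal cells, was at 8.56, 8.05 and 8.52 CPM in the controls, 4.55, 4.75 and 4.20 with shAHR#2 and 19.3, 17.2 and 18.5 with shAHR#3. The groups were far apart, at 53.8% of the control and 2.19-fold. SLAMF7, a receptor of the SLAM family known from plasma cells and natural killer cells, was at 10.9, 11.3 and 10.6 CPM, 4.34, 3.75 and 3.95 CPM, and 22.5, 19.8 and 21.1 CPM in the same order of groups. It too was separate in all 9 libraries. The leukocyte marker PTPRC moved otherwise, from 0.122 CPM under pLKO-GFP to 1.34 with shAHR#2 and 1.00 with shAHR#3. VSIR, the immune checkpoint VISTA, was at 10.4 ± 0.740 CPM under pLKO-GFP, 4.83 ± 0.995 with shAHR#2 and 14.2 ± 0.348 with shAHR#3.

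GDF15, a stress-induced cytokine of the TGF-beta family, was at 42, 32 and 37 reads in the controls, 21, 14 and 15 with shAHR#2 and 54, 66 and 70 with shAHR#3. It was the one member among 60 cytokines, chemokines and growth factors tested. Of these, 26 were called higher and 18 lower with shAHR#2 and 27 higher and 15 lower with shAHR#3 (medians 0.15 and 0.14). The shares over all genes tested were 32.6% and 33.2% with shAHR#2, and 26.9% and 27.5% with shAHR#3. SCARA5, a scavenger receptor that takes up ferritin, had 25, 30 and 21 reads, then 5, 4 and 5, then 41, 46 and 53. That is 20.2% of the control with shAHR#2, with an exact 95% interval of 10.6% to 36.0% for counting error alone.

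STC1, stanniocalcin-1, a secreted glycoprotein of calcium and phosphate balance, was among the 14 genes higher with shAHR#2. It was at 47.2, 47.0 and 44.2 CPM in the controls, 82.5, 77.7 and 75.98 with shAHR#2 and 28.7, 29.5 and 28.03 with shAHR#3. The groups were separate by wide gaps, at 1.71-fold and 62.3% of the control. CLEC2B, a lectin-like ligand of a natural killer cell receptor, was at 5.15 ± 0.559, 7.43 ± 1.46 and 3.84 ± 0.206 CPM. F2RL3, the thrombin receptor PAR4, was at 1.32 ± 0.398, 4.88 ± 0.429 and 1.01 ± 0.411 CPM, and its shAHR#3 libraries overlapped the controls.

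The transcription regulators described here were all lower with shAHR#2 and higher with shAHR#3, the direction of 50 of the 64 members. EPAS1, the hypoxia-inducible factor HIF-2 alpha, was at 142, 152 and 148 CPM in the controls, 86.5, 93.5 and 91.6 with shAHR#2 and 194, 193 and 200 with shAHR#3, with no overlap.

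The other factors comprised nuclear receptors, early-response factors and helix-loop-helix proteins. THRB, a thyroid hormone receptor, was at 4.43 ± 0.344 CPM under pLKO-GFP, 3.13 ± 0.304 with shAHR#2 and 8.49 ± 0.834 with shAHR#3. NR4A2, an orphan nuclear receptor induced by many stimuli, was at 5.26 ± 0.585, 4.03 ± 0.159 and 8.07 ± 0.716 CPM. FOS, a subunit of AP-1, was at 3.40 ± 0.101, 1.26 ± 0.250 and 5.03 ± 0.906 CPM. ATOH8, a basic helix-loop-helix factor, was at 11.98 ± 0.868, 7.32 ± 0.555 and 17.5 ± 1.299 CPM, and ID4, which blocks such factors, at 1.89 ± 0.553, 1.31 ± 0.214 and 3.10 ± 0.0938 CPM. For ID4 the shAHR#2 libraries overlapped the controls.

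The interferon-stimulated members IFIT1, IFIT3 and IFIH1 were all lower with shAHR#2 and higher with shAHR#3, as were 50 of the 64 members. IFIT1, which binds viral RNA, and IFIT3 lie 15072 bases apart on chromosome 10. IFIT1 was at 68.5, 67.5 and 68.7 CPM in the controls, 45.8, 39.0 and 43.1 with shAHR#2 and 88.7, 95.4 and 85.6 with shAHR#3. IFIT3 was at 110, 111 and 111 CPM, then 81.1, 76.7 and 78.5, then 143, 148 and 145. Neither gene's groups overlapped. IFIH1, the RNA sensor MDA5, was at 10.8 ± 0.611, 7.03 ± 0.553 and 14.1 ± 1.31 CPM.

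Of their neighbours, IFIT2 moved in the same directions and IFIT5 did not. IFIT2 missed the fold threshold with shAHR#2 only, with mean levels of 59.4 CPM under pLKO-GFP, 49.8 with shAHR#2 and 80.7 with shAHR#3. IFIT5 fell with both, by 1.63 and 0.70 on the log2 scale (standard errors 0.06 and 0.05). Of 53 interferon-stimulated genes tested, 27 were called higher and 15 lower with shAHR#2, and 34 higher and 5 lower with shAHR#3, with medians of 0.26 and 0.29. For this and the next lists, the shares over all genes tested were 32.6% higher and 33.2% lower with shAHR#2. With shAHR#3 they were 26.9% and 27.5%. Of 16 AHR and AHR target genes tested, a list that also holds NEDD9, 5 were called higher and 8 lower with shAHR#2, and 5 higher and 7 lower with shAHR#3 (medians -0.21 and -0.11). No gene among 21 EMT regulators and cadherins or 38 cell cycle regulators tested was a member. With shAHR#2 these lists had 8 and 14 genes called higher and 7 and 16 lower, with medians of 0.04 and -0.02. With shAHR#3 they had 11 and 13 higher and 5 and 11 lower, with medians of 0.29 and 0.03. Members included, 5 of the 43 matrix, 3 of the 60 cytokine and 7 of the 53 interferon-stimulated genes were called in opposite directions. So were 1 of the 16 AHR list genes, 1 of the 38 cell cycle and 0 of the 21 EMT genes. Over all genes tested it was 2.03%.

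Endothelial nitric oxide synthase and its trafficking partner were both in the set, at low levels. NOS3 had 37, 25 and 22 reads in the controls, 20, 23 and 11 with shAHR#2 and 69, 40 and 66 with shAHR#3. NOSTRIN, which draws the enzyme from the plasma membrane into vesicles, had 14, 28 and 30, then 15, 12 and 10, then 45, 45 and 44. NOSTRIN's groups were apart on the CPM scale, but barely below the control. Its lowest control library was at 0.804 CPM and its highest shAHR#2 library at 0.785, and their read counts overlapped. NOS3's groups overlapped. The endothelial marker PECAM1 was higher with both hairpins, at 10.9 and 12.2 CPM against 2.45 under pLKO-GFP, and VWF had at most 9 reads.

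Lipid, steroid, metal and cofactor genes gave 6 members. AKR1C2, an enzyme that inactivates dihydrotestosterone, had 9, 10 and 8 reads in the controls, 1, 2 and 4 with shAHR#2 and 33, 55 and 46 with shAHR#3. Its close paralogs share long stretches of sequence, so reads may have been split among them. AKR1C1 was at 3.15, 3.37 and 12.6 CPM and AKR1C3 at 18.2, 21.1 and 38.3 CPM in the same order, higher with shAHR#3 and not lower with shAHR#2. ABCG1, a cholesterol exporter, had 22, 28 and 27 reads, then 6, 17 and 12, then 87, 83 and 89. It was at 51.8% of the control with shAHR#2 and 3.20-fold with shAHR#3, without overlap.

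The remaining genes of this role moved less. PIK3C2B was at 15.6 ± 1.86, 11.8 ± 0.927 and 23.5 ± 1.98 CPM, and LPL, the lipoprotein lipase, at 2.22 ± 0.578, 1.63 ± 0.342 and 3.16 ± 0.520 CPM with overlap. STEAP1, a membrane protein of a metalloreductase family, was at 14.1, 12.3 and 14.5 CPM in the controls, 21.1, 18.3 and 18.5 with shAHR#2 and 8.85, 10.2 and 10.1 with shAHR#3. NMRK1, which phosphorylates nicotinamide riboside on the way to NAD, was at 1.62 ± 0.291, 2.19 ± 0.371 and 0.977 ± 0.0996 CPM, and its shAHR#2 libraries overlapped the controls.

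Channels, carriers and vesicle proteins gave 6 members, 5 of them higher with shAHR#3, beside 50 of all 64. SLC22A23, an orphan carrier, was 2.88-fold with shAHR#3, but its shAHR#2 libraries of 1.52, 2.94 and 1.67 CPM overlapped the controls of 2.76, 2.10 and 3.15 CPM. PSMG4 overlaps 15.6% of the exonic bases of SLC22A23 on the opposite strand. It is counted higher, at 9.60 against 4.13 CPM over all libraries. SCN9A, a voltage-gated sodium channel of pain-sensing neurons, was at 3.95 ± 1.04, 1.86 ± 0.469 and 6.15 ± 0.306 CPM. SYT2, a calcium sensor of synaptic vesicles, was at 7.19 ± 1.15, 4.05 ± 0.681 and 9.43 ± 0.357 CPM, but 27.0% of its exonic bases overlap PPP1R12B on the opposite strand. TMEM139 was at 3.45 ± 0.169, 2.06 ± 0.524 and 5.89 ± 0.536 CPM, and EFHD1, a calcium-binding protein of mitochondria, at 8.67 ± 0.996, 6.41 ± 0.341 and 14.1 ± 0.125 CPM. RAB38, a small GTPase of melanosome transport, ran the other way at 1.66 ± 0.209, 2.28 ± 0.264 and 1.23 ± 0.139 CPM.

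Inhibitors of signalling, adaptors and the genes with no shared role came to 9. TNFAIP3, the ubiquitin-editing enzyme A20 that restrains NF-kB, was at 7.87, 9.79 and 9.03 CPM in the controls, 12.7, 13.6 and 12.7 with shAHR#2 and 6.74, 5.88 and 6.14 with shAHR#3. The 3 groups did not overlap, at 1.46-fold and 70.3% of the control. RGS20, which speeds the turning off of G proteins, was at 6.91 ± 0.565, 9.11 ± 0.313 and 5.29 ± 0.638 CPM. BMF, a BH3-only promoter of apoptosis, was at 3.23 ± 0.143, 1.27 ± 0.109 and 5.07 ± 0.233 CPM with all groups apart.

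Of the annexins, which bind membranes in the presence of calcium, ANXA10 and ANXA8 were in the set with opposite directions, out of 11 at the floor. ANXA10 had 36, 18 and 25 reads in the controls, 103, 63 and 91 with shAHR#2 and 15, 28 and 21 with shAHR#3. The shAHR#2 libraries lay clear of the controls and the shAHR#3 libraries did not. ANXA8 had 38, 40 and 36 reads, then 15, 8 and 15, then 83, 66 and 48. Its near-copy ANXA8L1 was at 1.06, 0.464 and 1.49 CPM, and reads of the pair may have been divided. DZIP1, a ciliary basal body protein, was at 2.45 ± 0.480, 1.16 ± 0.160 and 3.88 ± 0.641 CPM, and LZTS1, a leucine zipper protein, at 2.30 ± 0.277, 1.45 ± 0.470 and 3.47 ± 0.322 CPM. The gap of LZTS1 below the control was as narrow as 2.01 against 1.99 CPM, and those libraries had 35 and 38 reads.

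ANKRD30B and LDLRAD4, a pair singled out after its values were seen, had similar counts in each library. Both entered by the same rule in the same direction, so their agreement between groups was fixed in advance. Other pairs of members were not compared in this way. ANKRD30B, an ankyrin repeat gene related to a breast differentiation antigen, had 14, 13 and 5 reads in the controls, 4, 1 and 3 with shAHR#2 and 30, 42 and 52 with shAHR#3. LDLRAD4, an inhibitor of TGF-beta signalling, had 18, 15 and 6, then 4, 1 and 3, then 34, 52 and 54. Both were lowest of the controls in replicate 3 and lowest of the shAHR#3 libraries in replicate 1. They lie 1.08 Mb apart on chromosome 18, and the 4 genes at the floor between them, FAM210A, RNMT, ZNF519 and ANKRD20A5P, are not members. From summed counts with shAHR#2, ANKRD30B was at 27.4% of the control (exact 95% interval 10.9% to 60.8%) and LDLRAD4 at 22.5% (9.09% to 48.9%).

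**Figure D5:**
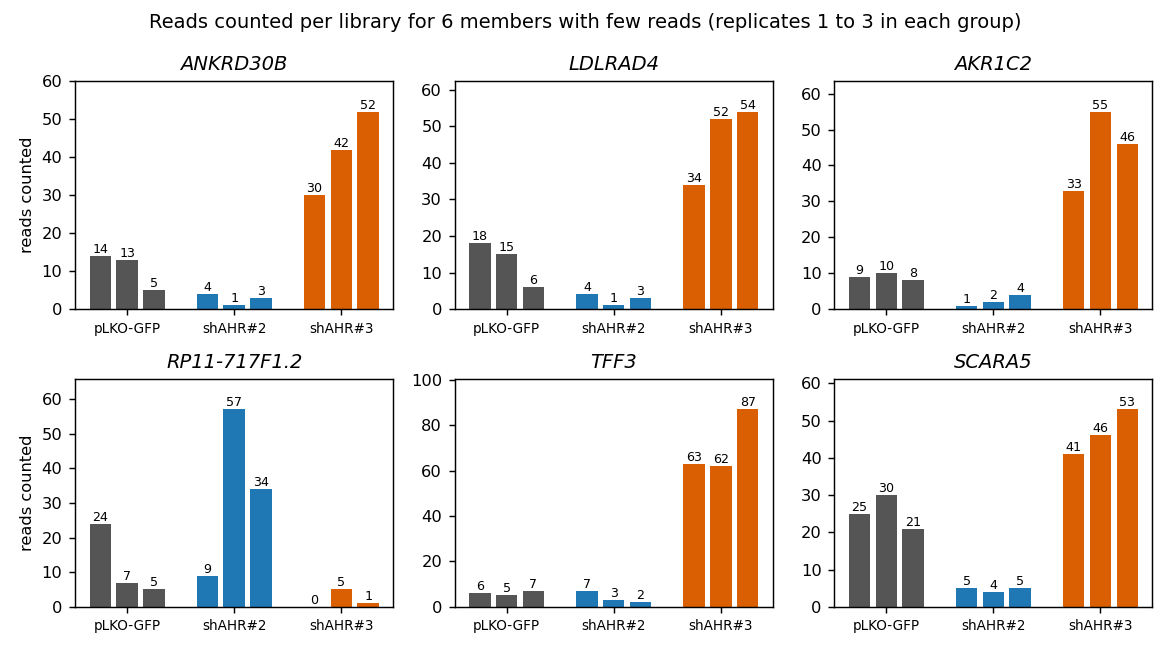
Reads counted in each library (bars, replicates 1 to 3 of each group) for 6 members with few reads. ANKRD30B and LDLRAD4, chosen by the same rule in the same direction, have similar counts. RP11-717F1.2 ranges from 9 to 57 reads within shAHR#2. TFF3 lies above every control only with shAHR#3 (its highest shAHR#2 library equals the highest control).

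TFF3, a trefoil peptide of mucous epithelia, was 11.1-fold with shAHR#3, the largest move with that hairpin among the 64. It had 6, 5 and 7 reads in the controls, 7, 3 and 2 with shAHR#2 and 63, 62 and 87 with shAHR#3. With shAHR#2 its summed counts were 73.2% of the control with an exact interval from 32.1% to 161%, so no lower level was detectable at this depth. TFF3 lies 14422 bases from ABCG1 on chromosome 21. The neighbouring trefoil genes TFF2 and TFF1 were higher with both hairpins, TFF2 at 0.456, 2.88 and 7.06 CPM and TFF1 at 0.216, 1.84 and 4.10 CPM under pLKO-GFP, shAHR#2 and shAHR#3.

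The 7 long noncoding RNAs were all low. RP11-717F1.2 had 24, 7 and 5 reads in the controls, 9, 57 and 34 with shAHR#2 and 0, 5 and 1 with shAHR#3. Its shAHR#2 libraries overlapped the controls, and without shAHR#2 replicate 2 it left the set. LINC01605 was at 2.65 ± 0.556, 4.14 ± 0.705 and 1.497 ± 0.170 CPM. In the other direction, AC002480.3 was at 3.42 ± 0.314, 2.24 ± 0.418 and 5.98 ± 0.758 CPM and LINC02331 at 1.99 ± 0.237, 0.784 ± 0.381 and 3.03 ± 0.147 CPM. LINC01303, DDN-AS1 and PCAT7 had control means of 1.41, 2.08 and 2.31 CPM. Each shares exonic bases with a gene of more reads on the opposite strand (LINC03033, KMT2D and FBP1), and whether the counting used strand is not stated.

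By chromosome, the set held 7 genes on chromosome 2, 6 each on chromosomes 1 and 8, and none on chromosomes 16, 20 and 22. Chromosome 8 held 9.38% of the members and 3.49% of the genes at the floor, and chromosome 21 held 4.69% and 0.9499%. Pairs closer than 2 Mb that moved the same way were ABCG1 and TFF3, IFIT3 and IFIT1, LPL and LZTS1, LDLRAD4 and ANKRD30B, SEMA6C and FLG, PDGFRB and SPARC, SYT2 and PIK3C2B, and PLXNB1 and SEMA3F. F2RL3 and GDF15, 1.48 Mb apart, moved opposite ways. With 50 of the 64 members in the same direction, agreement within a pair says little. Apart from ABCG1 with TFF3 and IFIT3 with IFIT1, each pair has genes at the floor between them that are not members.

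At the fold threshold of 1.3, the members just inside were RGS20 (1.32-fold up and 1.304-fold down) and F2RL3 (3.71 and 1.31) in one direction, and PCAT7 (1.3001 and 1.32) and IFIH1 (1.302 and 1.54) in the other. Just outside were LINC02454 (1.38 and 1.2995), ADGRG1 (1.28 and 1.34), JPH2 (1.297 and 1.58) and RP11-521B24.4 (1.40 and 1.29). At the floor of 2 CPM, RP11-717F1.2 and NMRK1 entered with highest group means of 2.05 and 2.19 CPM and ANKRD30B and LINC01303 with 2.08 and 2.21. Left out below it were AC137932.6 (1.40), PINLYP (1.31), TMEM45B (1.99) and OR7E14P (1.89). When single libraries were left out in turn, 28 of the 64 left the set under at least 1 of the 9 omissions. PCAT7 left under 6, RGS20 under 5, LPL and SLC22A23 under 4, and ANXA10, F2RL3, RAB38, SPARC, PIK3C2B and IFIH1 under 3. PLXNA4, NMRK1, CLEC2B, SYT2, NR4A2, SEMA3F, NOS3, THSD1, LINC01303 and JUP left under 2. RP11-717F1.2, SEMA6C, EFHD1, ID4, AKR1C2, IFIT1, ANKRD30B and TFF3 left under 1. NEDD9, ITGB3, ITGA1, PDGFRB, EPAS1, STC1 and TNFAIP3 stayed in it whichever library was left out.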

How the data were processed

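RNA of the 9 libraries was made into stranded mRNA libraries and read from 1 end on an Illumina NextSeq instrument. The deposited values are raw read counts per gene, which the authors made by aligning to GRCh38.p13 with STAR. The submitters' processing notes also name featureCounts of the Subread package. Versions, the annotation and whether counting used strand are not given in the sources used here.

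For the rule, counts were divided by column totals (CPM). The 3 groups were also fitted together in edgeR 4.0.16 (R 4.3.3) with TMM scaling and the quasi-likelihood test. Genes passed filterByExpr at a minimum count of 10 and a minimum total of 15, which left 14274. Adjusted p-values are Benjamini-Hochberg values over all of these, and calls were made at 0.05. The standard errors given are derived from the test. Each is the absolute log2 fold change divided by the square root of its F statistic. edgeR put the common biological coefficient of variation at 2.96%. The fit was tested on simulated data. Libraries of a group differed by a chi-square per degree of freedom of 1.74 to 3.97, more than counting error alone gives. This cannot tell separate cultures from repeated preparations of the same culture. Replicate numbers did not pair the libraries (correlations of same-numbered deviations from -0.05 to 0.08). Exact intervals of ratios of summed counts cover counting error only, since they pool the 3 libraries of a group and leave out the spread between them. No molecular identifiers were used. Positions, exon lengths and overlaps came from GENCODE release 44, which matched 60463 of 60649 gene identifiers, and promoters from RefSeq. Python 3.11.15 and scipy 1.17.1 were used for the rest.

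The members, the 8 gene lists and the tests were chosen with earlier results of these data known. Genes were named by a rule: NEDD9, the 12 members in each direction with the largest smaller log2 ratio, every member of a list, and the 2 members inside and 2 genes outside each threshold. All other members, the role groups and the families of semaphorins and plexins, annexins and IFIT genes were singled out after their values were seen. Alternatives were TMM and DESeq2 1.42.0 scaling, other folds and floors, DESeq2's test, no filter, a replicate block, a stricter threshold and leaving out each library. The values of 1 of the 64 members and of 1 marker gene are not reported here.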

Additional observations from a re-analysis of the deposited data

How the results depend on the processing

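The set depended most on its own thresholds. It held 131 genes at a fold of 1.2 (37 higher with shAHR#2 and 94 lower), 24 at 1.5 (4 and 20), 4 at 2 (1 and 3), and 36 with a floor of 5 CPM (8 and 28). With TMM scaling it held 58 genes and kept 51 of the 64, and with DESeq2 size factors it held 59 and kept 52; JUP, SEMA3F, PIK3C2B, EFHD1 and SLC22A23 were among those lost from both. Leaving out single libraries gave 58 to 69 genes. Of the 64, 36 stayed in under all 9 omissions, NEDD9, ITGB3, ITGA1, PDGFRB, EPAS1 and STC1 among them, and 28 left under at least 1, PCAT7 under 6. With adjusted p under 0.01, 183 of all genes tested were called in opposite directions in place of 290. With DESeq2's test 43 members and 244 of all genes were called so, with no filter 46 and 258, and without single libraries 40 to 47 and 237 to 290. A replicate block gave 46 members and 295 of all genes, and no listed count moved by over 1.5 times under it. BCAR1 with shAHR#2 ranged from -0.21 to -0.11 on the log2 scale when single libraries were left out. It passed the threshold without shAHR#2 replicate 2 (-0.21) and without shAHR#3 replicate 2 (-0.15). With shAHR#3 it ranged from -0.13 to 0.0275 and was reversed without shAHR#3 replicate 2 (0.0275); the cause was not tested. Depth limits the 12 members with under 10 reads in a library.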
